A study of Mus musculus with 8 samples.

Results

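Fibroblast growth factor (FGF) signalling was described through 10 genes in RNA-seq libraries of sorted mouse osteoblasts: the receptors Fgfr1, Fgfr2 and Fgfr3, the ligands Fgf2 and Fgf18, and the feedback genes Spry1, Spry2, Spry4, Dusp6 and Etv5. They were found by gene symbol among the 21154 genes of the count table. All 10 had a row, and all 10 were among the 15373 genes that passed the filter on low counts. The study's stated subject is what chemotherapy does to skeletal progenitors, here read in osteoblasts.

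Doxorubicin (DOX) libraries (n = 5) came from female mice that had received 4 intravenous injections of the drug, at 5 mg/kg each and 1 week apart. PBS libraries (n = 3) came from female mice given phosphate-buffered saline by the same route 4 times. Doxorubicin is an anthracycline that damages DNA. The mice were treated as young adults of 8 to 10 weeks, and bone was collected 8 weeks after treatment. All mice, the PBS mice included, carried Col2.3-GFP, in which a fragment of the Col1a1 promoter drives green fluorescent protein in bone-forming cells, and cells were sorted on that fluorescence after the marrow had been removed and the bone digested. The labels name 2 batches. Batch 1 held DOX replicates 1 and 2 and PBS replicate 1, and batch 2 held DOX replicates 3, 4 and 5 and PBS replicates 2 and 3. DOX replicate 1 is titled DOX but carries a treatment tag of PBS, and it was counted by its title. The titles call the libraries biological replicates and do not say whether a library is 1 animal, so p-values measure the spread between these libraries.

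In FGF signalling, a secreted ligand and a heparan sulfate chain together join receptor tyrosine kinases at the cell surface. The receptors then act through the RAS and ERK kinases. ERK activity raises the transcription of its own brakes, among them the Sprouty proteins (Spry1, Spry2, Spry4), which restrain RAS signalling, and the phosphatase Dusp6, which inactivates ERK. It also raises ETS transcription factors such as Etv5. In the skeleton the pathway is known for inherited disorders of skull sutures and growth plates that change the receptors.

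Library totals ran from 39419027 to 44151882 counts in DOX and from 40985302 to 44299591 in PBS. Col1a1 and Col1a2 together took 23.2% of counts in DOX replicate 1 and 19.1% in PBS replicate 1, against 26.0% to 39.5% in the other 6 libraries. The 8 osteoblast markers were detected in every library and summed to between 216747 and 418867 CPM (counts scaled to a common library total) in DOX and between 178486 and 530333 CPM in PBS. Of the 8 endothelial markers 1 had counts in every library, and their sum was 1.03 to 17.3 CPM in DOX and 1.23 to 20.6 CPM in PBS. Of the 7 haematopoietic markers analysed 4 had counts in every library, and their sum was 4.35 to 13.3 CPM in DOX and 6.09 to 14.1 CPM in PBS. The 7 erythroid markers analysed, 6 of them with counts in every library, summed to 2.32 to 109 CPM in DOX and 3.84 to 155 CPM in PBS, and the highest sum in each group was that of replicate 1.

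The osteoblasts expressed Fgfr1 and Fgfr2 at high level, Fgfr3 and the feedback genes at lower levels, and very little of either ligand. Levels of different genes were compared per length, as CPM divided by the kilobases of exon in the GENCODE M21 annotation. Fgfr1 stood at 36.0 ± 6.14 CPM per kilobase and Fgfr2 at 30.8 ± 7.12 (SD, n = 8 libraries). Etv5 followed at 7.84 ± 2.09, Spry1 at 6.78 ± 2.58, Fgfr3 at 4.53 ± 0.786 and Dusp6 at 4.41 ± 1.98. Spry4 stood at 1.59 ± 0.698 CPM per kilobase, Spry2 at 1.13 ± 0.333, Fgf18 at 0.343 ± 0.458 and Fgf2 at 0.0978 ± 0.0595.

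**Figure D1:**
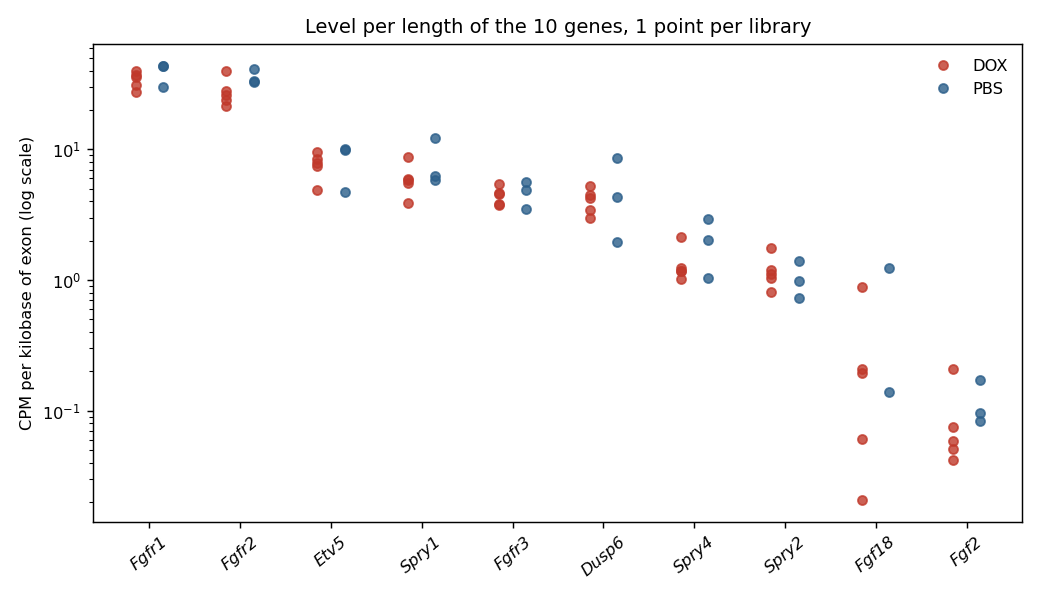
Level per length of the 10 genes, as CPM per kilobase of exon on a log axis, with 1 point per library, DOX in red and PBS in blue. Fgfr1 and Fgfr2 lie above all other genes in every library, and the ligands lie lowest. Fgf18 in PBS replicate 3 had a count of 0 and cannot be drawn on a log axis.

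This order was set by the mean over the same 8 libraries, so the pairs and their directions come from the values tested. Between neighbours in it, 3 of 9 steps exceeded the spread over libraries. They were the step from Fgfr2 to Etv5, with a mean difference of 1.99 log2 units, from Dusp6 to Spry4 (1.45) and from Spry2 to Fgf18 (2.45). Each kept its direction in 8 of 8 libraries (exact two-sided sign-flip permutation p = 0.00781, the smallest that 8 libraries allow; adjusted p = 0.0234 over the 9 pairs). Fgfr1 exceeded Fgfr2 in 7 of 8 libraries by 0.24 log2 units on average, which did not pass (exact permutation, adjusted p = 0.0703), and with the longest transcript as the length Fgfr2 came first. Spry1 exceeded Fgfr3 in 7 of 8 libraries by 0.53 log2 units (exact permutation, adjusted p = 0.0527), and that pair changed places with the longest transcript. Etv5 and Spry1, Fgfr3 and Dusp6, Spry4 and Spry2, and Fgf18 and Fgf2 did not differ beyond their spread by exon bases. Fgfr3 and Dusp6 had mean log2 CPM per kilobase of 2.16 and 2.03 by exon bases, and of 2.91 and 2.19 by the longest transcript.

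Of the level per length summed over the 3 receptors, Fgfr1 took 51.7 ± 2.95% in DOX (SD, n = 5) and 48.9 ± 4.75% in PBS (SD, n = 3). Fgfr2 took 41.5 ± 2.91% in DOX and 45.1 ± 3.82% in PBS, and Fgfr3 took 6.76 ± 1.05% in DOX and 6.05 ± 2.16% in PBS. Fgfr4 was not analysed here.

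None of the 10 genes passed the test between DOX and PBS osteoblasts. After Benjamini-Hochberg adjustment, edgeR's quasi-likelihood test with batch as a term called 0 of 15373 genes (0%), with no adjusted p below 0.995. Before adjustment, 571 genes (3.71%) had a p under 0.05, and none of the 10 was among them. DESeq2 called 15 genes (0.0976%), none of the 10, and limma-voom with quality weights called 0 (0%). Before adjustment limma-voom gave 3 of the 10 a p under 0.05 (Fgfr1, Fgfr2 and Spry4), where 10.2% of all genes had one. Of the 10 genes, 9 had a log2 fold change below 0, with a median of -0.26, against 47% of all genes tested and a median of 0.02. That count was 7 without PBS replicate 1, 7 without DOX replicate 1 and 6 without PBS replicate 2. In bulk libraries, fewer cells of a type and less RNA per cell cannot be told apart.

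**Figure D2:**
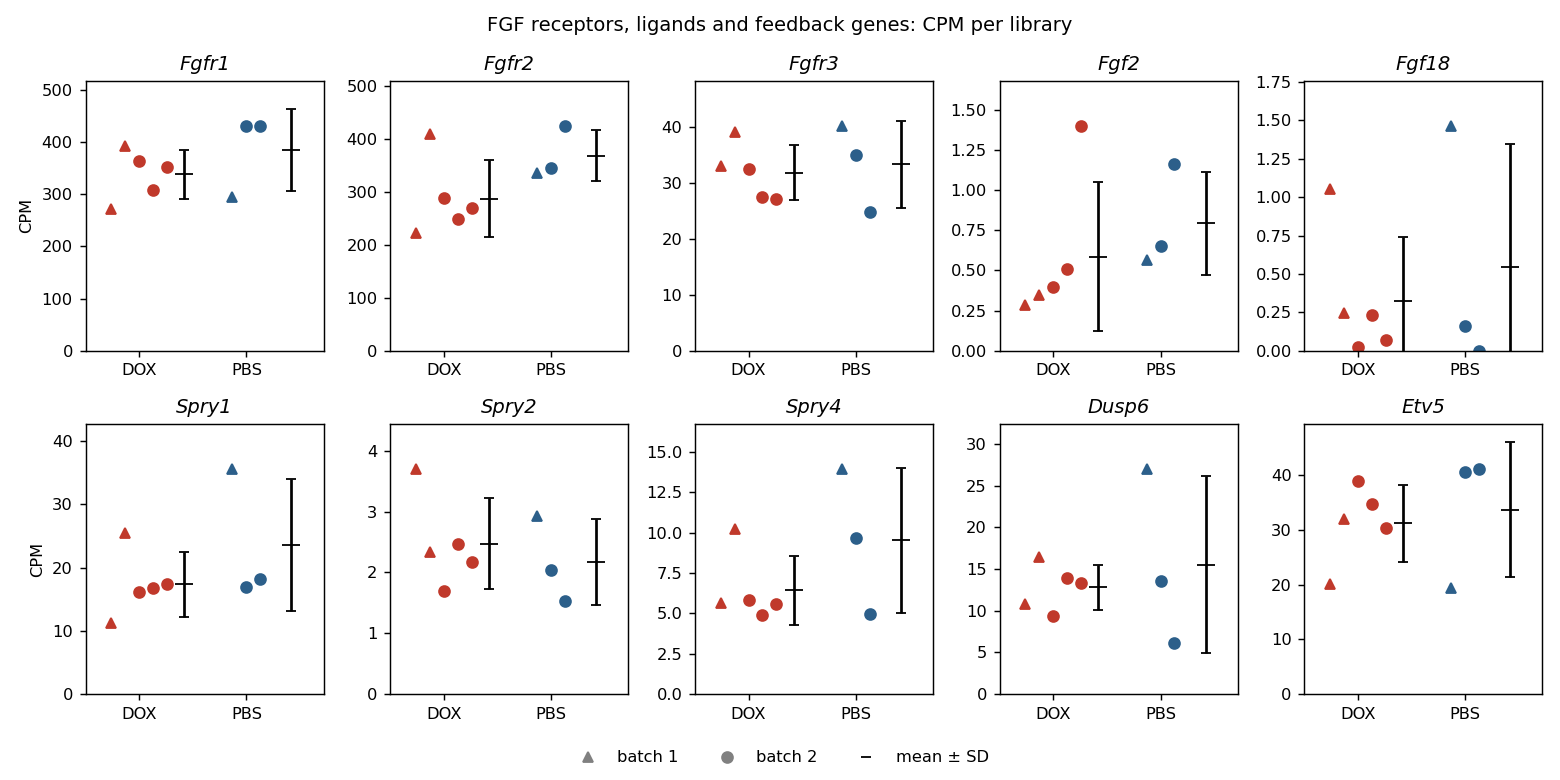
CPM of each gene by library, with DOX left of PBS in each panel, triangles for batch 1 and circles for batch 2. The bars give the mean ± SD of each group, which for Fgf18 runs below 0. For each gene the libraries of both groups overlap, and PBS replicate 1, the triangle of PBS, is the highest PBS library for Fgfr3, Fgf18 and the 4 genes Spry1, Spry2, Spry4 and Dusp6, and the lowest for Fgfr1, Fgfr2, Fgf2 and Etv5.

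The 3 receptors had log2 fold changes between -0.37 and -0.09, and none passed. Fgfr1, the receptor of mesenchymal cells that binds Fgf2, stood at 273, 393, 364, 308 and 353 CPM in DOX replicates 1 to 5, against 295, 431 and 431 CPM in PBS replicates 1 to 3. The groups overlapped through PBS replicate 1, which lay below 4 of 5 DOX libraries. The log2 fold change was -0.16 ± 0.16 (SE), with a 95% interval of -0.52 to 0.20 (edgeR, adjusted p = 0.995), and it was -0.33 without PBS replicate 1 and -0.04 when DOX replicate 1 was taken as a PBS library, as its tag says.

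Fgfr2, whose mesenchymal form binds Fgf18, stood at 223, 409, 289, 248 and 269 CPM in DOX replicates 1 to 5, against 337, 345 and 425 CPM in PBS replicates 1 to 3. In DOX, 4 of 5 libraries lay below every PBS library, and DOX replicate 2 lay among the PBS values. Between the groups the log2 fold change was -0.37 ± 0.20 (SE), with a 95% interval of -0.81 to 0.07 (edgeR, adjusted p = 0.995; unadjusted p = 0.0878). Without DOX replicate 2 it was -0.54 (edgeR, unadjusted p = 0.000925, adjusted p = 0.432), and without PBS replicate 3 it was -0.24 (unadjusted p = 0.312). When DOX replicate 1 was taken as a PBS library it was -0.13 (edgeR, unadjusted p = 0.558). Ctbp2, a gene on the same strand that shares 3.04% of the exon bases of Fgfr2, had 822 to 1098 counts in DOX and 890 to 993 in PBS.

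Fgfr3, known for restraining growth plate cartilage, stood at 33.0, 39.03, 32.5, 27.5 and 27.0 CPM in DOX replicates 1 to 5, against 40.2, 35.1 and 24.9 CPM in PBS replicates 1 to 3. All 5 DOX libraries lay between the lowest and the highest PBS library. Its log2 fold change was -0.09 ± 0.14 (SE), with a 95% interval of -0.41 to 0.23 (edgeR, adjusted p = 0.995), and it was 0.03 without PBS replicate 2. G630022F23Rik, on the opposite strand, shares 13.9% of the exon bases of Fgfr3 and had 0 to 13 counts in DOX and 0 to 6 in PBS. The 8 chondrocyte markers, of which 6 had counts in every library, summed to 1961 to 5682 CPM in DOX and 2784 to 7190 CPM in PBS. Matn3 was at 0 in DOX replicate 2 and PBS replicate 3, and Col10a1 in PBS replicate 3, and the part of such transcripts in the Fgfr3 values was not tested.

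The receptors were also compared within batches. For Fgfr3 the log2 fold change was -0.04 ± 0.17 (SE) in batch 2 alone (edgeR, unadjusted p = 0.808) and -0.18 ± 0.40 in batch 1 alone. In batch 2 all 3 DOX libraries lay below both PBS libraries in CPM for Fgfr1, Fgfr2 and Etv5. That was 3 of the 10 genes, against 15.3% of all genes tested. The TMM factors, which scale the library totals, were 0.921, 1.05 and 1.02 in DOX replicates 3 to 5 and 0.828 and 0.806 in PBS replicates 2 and 3. Counts over unscaled library totals kept that order for Fgfr2 and not for Fgfr1 or Etv5. Fitted on batch 2 alone, the log2 fold change was -0.33 ± 0.11 (SE) for Fgfr1 and -0.51 ± 0.12 for Fgfr2 (edgeR, unadjusted p = 0.0149 and 0.00248; adjusted p = 0.324 and 0.310). At an unadjusted p under 0.05 that fit listed 12.8% of genes. In batch 1, mean Fgfr1 was 333 CPM in DOX (n = 2) and 295 CPM in PBS (n = 1), and mean Fgfr2 was 316 CPM in DOX and 337 CPM in PBS. The difference between batches was itself tested and did not pass, at -0.51 ± 0.30 (SE) for Fgfr1 and -0.43 ± 0.39 for Fgfr2 (edgeR interaction term, adjusted p = 0.537 and 0.714). On simulated counts with the same spread for every gene, this test found 4% of genes changed 2-fold and 63% of those changed 4-fold. Its failure to pass therefore does not show that the batches were alike.

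Both ligands had few counts. Fgf2, a ligand without a classical secretion signal that is stored in bone matrix, had 14, 14, 16, 22 and 58 counts in DOX replicates 1 to 5, against 30, 24 and 41 counts in PBS replicates 1 to 3. Those counts were 0.283 to 1.40 CPM in DOX and 0.563 to 1.16 CPM in PBS. Of the DOX libraries, 4 lay below every PBS library and DOX replicate 5 above them all. For Fgf2 the log2 fold change was -0.46 ± 0.60 (SE), with a 95% interval of -1.78 to 0.87 (edgeR, adjusted p = 0.995), and it was -0.94 without DOX replicate 5, -0.23 without PBS replicate 1 and -0.26 when DOX replicate 1 was taken as a PBS library. Nudt6, a gene on the opposite strand that shares 9.44% of the exon bases of Fgf2, had 32 to 64 counts in DOX and 29 to 94 in PBS, and because the kit does not mark strand, reads of the shared bases cannot be assigned to either gene.

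Fgf18, a ligand that acts on both osteoblasts and cartilage, had 52, 10, 1, 10 and 3 counts in DOX replicates 1 to 5, against 78, 6 and 0 counts in PBS replicates 1 to 3. The count of 0 in PBS replicate 3 has a floor of 3 counts, or 0.0849 CPM. Its exact Poisson 95% interval runs up to 0.104 CPM, for counting error only. Most of the counts of each group came from its replicate 1 in batch 1, at 1.05 CPM in DOX (exact Poisson 95% interval 0.784 to 1.38) and 1.46 CPM in PBS (1.16 to 1.83). For Fgf18 the log2 fold change was -0.33 ± 1.04 (SE), with a 95% interval of -2.65 to 1.99 (edgeR, adjusted p = 0.995). Its direction turned without PBS replicate 1 (0.41), PBS replicate 2 (0.12) or DOX replicate 2 (0.07).

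Over all libraries, Fgf13 stood at 5.37 CPM per kilobase, Fgf7 at 3.65, Fgf1 at 1.27 and Fgf11 at 0.574. These lay above the 0.343 of Fgf18 and the 0.0978 of Fgf2. Of the 20 other FGF genes, 9 were analysed and 5 were tested, of which 0 passed, 2 were higher and 3 lower. Fgf13, an FGF that stays inside the cell and binds sodium channels, stood at 20.4 ± 3.54 CPM in DOX and 23.6 ± 6.03 CPM in PBS (SD, n = 5 and 3). Fgf7, a secreted ligand known for acting on epithelia, stood at 10.8 ± 2.13 CPM in DOX and 13.6 ± 13.2 CPM in PBS. Fgf11, another intracellular FGF, had a log2 fold change of 0.63 ± 0.50 (SE). Fgf1, a ligand of all FGF receptors, and Fgf23, the phosphate-regulating hormone of osteocytes, were chosen after their values were seen. Fgf1 stood at 3.21 to 6.99 CPM in DOX, and at 19.5, 4.96 and 3.79 CPM in PBS replicates 1 to 3. Fgf23, too low for the test, had 93 counts over the DOX libraries and 8 over the PBS libraries, with 0.848 and 1.12 CPM in DOX replicates 1 and 2 and 0 in DOX replicates 3 and 4.

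None of the 5 feedback genes passed the test, and PBS replicate 1 was the highest of the 8 libraries for Spry1, Spry4 and Dusp6. Spry1 stood at 11.2, 25.5, 16.1, 16.8 and 17.3 CPM in DOX replicates 1 to 5, against 35.6, 16.9 and 18.2 CPM in PBS replicates 1 to 3. PBS replicate 1 lay above all other libraries, and DOX replicate 1, of the same batch, below all others. The fitted log2 fold change was -0.40 ± 0.26 (SE), with a 95% interval of -0.98 to 0.17 (edgeR, adjusted p = 0.995), and it was -0.06 without PBS replicate 1 and -0.19 without DOX replicate 1. When DOX replicate 1 was taken as a PBS library it was -0.000982. Gm42922, a predicted gene on the opposite strand that shares 24.4% of the exon bases of Spry1, had 2 to 7 counts in DOX and 25, 4 and 2 in PBS replicates 1 to 3, so reads of the shared bases cannot be assigned to either gene. Tested between batches, the DOX difference of Spry1 was 0.89 ± 0.47 (SE) on the log2 scale (edgeR interaction term, adjusted p = 0.496). Without DOX replicate 2, batch 1 holds 1 DOX and 1 PBS library and batch 2 alone gives the spread. That fit gave 1.60 (edgeR interaction term, adjusted p = 0.0450) and called 58 genes, but its DOX library of batch 1 is replicate 1, and with that library counted as PBS and replicate 2 kept the value was -0.16.

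Spry2, a second Sprouty, was the gene of this group with a higher mean in DOX. It stood at 3.70, 2.33, 1.698, 2.47 and 2.17 CPM in DOX replicates 1 to 5, against 2.93, 2.04 and 1.53 CPM in PBS replicates 1 to 3. DOX replicate 1 lay above every PBS library, and the other DOX libraries among the PBS values. The log2 fold change was 0.17 ± 0.31 (SE), with a 95% interval of -0.52 to 0.85 (edgeR, adjusted p = 0.995). It was 0.04 without PBS replicate 3, 0.07 without DOX replicate 1 and 0.27 without DOX replicate 2, and -0.02 when DOX replicate 1 was taken as a PBS library.

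Spry4, a Sprouty often read as a marker of ERK activity, stood at 5.61, 10.2, 5.83, 4.87 and 5.55 CPM in DOX replicates 1 to 5, against 13.9, 9.68 and 4.93 CPM in PBS replicates 1 to 3. The highest value of each group was in batch 1, and PBS replicate 3 lay with the low DOX libraries. Its fitted log2 fold change was -0.57 ± 0.27 (SE), with a 95% interval of -1.17 to 0.02 (edgeR, unadjusted p = 0.0558, adjusted p = 0.995). Leaving out 1 library moved it between -0.83 without PBS replicate 3 and -0.35 without PBS replicate 2, and it was -0.25 (edgeR, unadjusted p = 0.441) when DOX replicate 1 was taken as a PBS library. The libraries with the most Spry4 in each group were also those with the highest sum of the endothelial markers, 17.3 CPM in DOX replicate 2 and 20.6 CPM in PBS replicate 1 against at most 4.40 CPM elsewhere. The same libraries were the highest of their groups for Spry1, Dusp6 and Fgfr3. They also had the highest sum of the fibroblast, periosteum and tendon markers in each group, 806 CPM in DOX replicate 2 and 1156 CPM in PBS replicate 1. The part of RNA of these cell types in the Spry4 values was not tested.

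Dusp6 stood at 10.8, 16.4, 9.40, 13.9 and 13.4 CPM in DOX replicates 1 to 5, against 27.0, 13.5 and 6.11 CPM in PBS replicates 1 to 3. The PBS libraries thus held both the highest and the lowest value, with all DOX libraries between them. The log2 fold change was -0.19 ± 0.33 (SE), with a 95% interval of -0.92 to 0.54 (edgeR, adjusted p = 0.995), and it was 0.32 without PBS replicate 1 and -0.57 without PBS replicate 3. In batch 1 the mean was 13.6 CPM in DOX (n = 2) and 27.0 CPM in PBS (n = 1), and in batch 2 it was 12.2 CPM in DOX (n = 3) and 9.82 CPM in PBS (n = 2). The test of that difference between batches gave 1.30 ± 0.55 (SE) on the log2 scale and did not pass over all genes (edgeR interaction term, unadjusted p = 0.0412, adjusted p = 0.406; 11.7% of genes had an unadjusted p under 0.05).

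Etv5, an ETS transcription factor of the PEA3 group, had its lowest values in batch 1. It stood at 20.1, 32.0, 39.0, 34.8 and 30.3 CPM in DOX replicates 1 to 5, against 19.4, 40.6 and 41.1 CPM in PBS replicates 1 to 3. Replicate 1 was the lowest library of each group, and these were also the libraries with the lowest collagen share; its part in the Etv5 values was not tested. For Etv5 the log2 fold change was -0.01 ± 0.19 (SE), with a 95% interval of -0.43 to 0.41 (edgeR, adjusted p = 0.998). It was -0.23 without PBS replicate 1 and 0.07 without DOX replicate 5.

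**Figure D3:**
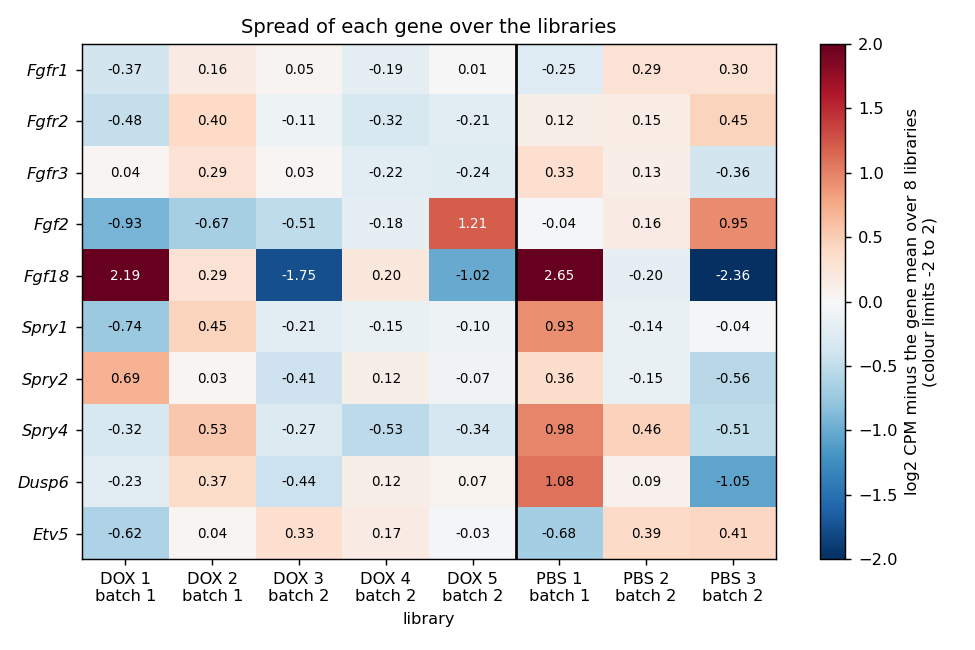
Log2 CPM of each gene in each library minus the mean of that gene over the 8 libraries, with DOX left of the black line and PBS right of it. PBS replicate 1 reads 0.93 for Spry1, 0.98 for Spry4 and 1.08 for Dusp6, and -0.68 for Etv5. Colours stop at -2 and 2, and Fgf18 runs past both.

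PBS replicate 1 was the highest of the 8 libraries for 5 of the 10 genes (Fgfr3, Fgf18, Spry1, Spry4 and Dusp6), against 18.4% of all genes tested. For 4 of them, all but Fgfr3, it reached at least 2 times the median of the other 7 libraries, which 12.2% of genes did. It was the lowest library for Etv5, as for 18.5% of genes. Of 77 other pathway genes tested, 10 reached at least 2 times that median: the ligands Fgf1, Fgf7 and Fgf9, the syndecan Sdc1, the sulfatase Sulf1, Ksr1, Dusp5, Etv1, Pdgfrb and Axl. In the same library the 8 markers of marrow reticular stroma summed to 962 CPM, against 166 to 606 CPM in the others, the 8 fibroblast, periosteum and tendon markers to 1156 CPM, against 350 to 806 CPM, and the erythroid markers to 155 CPM, against 2.32 to 109 CPM. Immediate early genes, which also follow cell handling, summed to 2237 CPM there. That lay below DOX replicates 1 (3817 CPM) and 2 (3067 CPM) of the same batch, and above the batch 2 libraries, at 1207 to 2100 CPM. The part of these transcripts in the values of the feedback genes was not tested.

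The batch difference was examined in the same fit. Between batch 2 (n = 5) and batch 1 (n = 3), edgeR called 14 of 15373 genes (0.0911%), and none of the 10, against 0 without PBS replicate 1. Of the 10, 4 had an unadjusted p under 0.05, where 14.6% of all genes did, against 0 of the 10 without PBS replicate 1. Fgf18 differed by -3.13 ± 0.99 (SE) on the log2 scale (edgeR, adjusted p = 0.234), Spry4 by -0.69 ± 0.26 (adjusted p = 0.290), Fgfr3 by -0.35 ± 0.14 (adjusted p = 0.307) and Etv5 by 0.64 ± 0.19 (adjusted p = 0.223). Without DOX replicate 2 the Etv5 value was 0.92 and passed (edgeR, adjusted p = 0.0212), in a fit that called 938 genes.

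**Figure D4:**
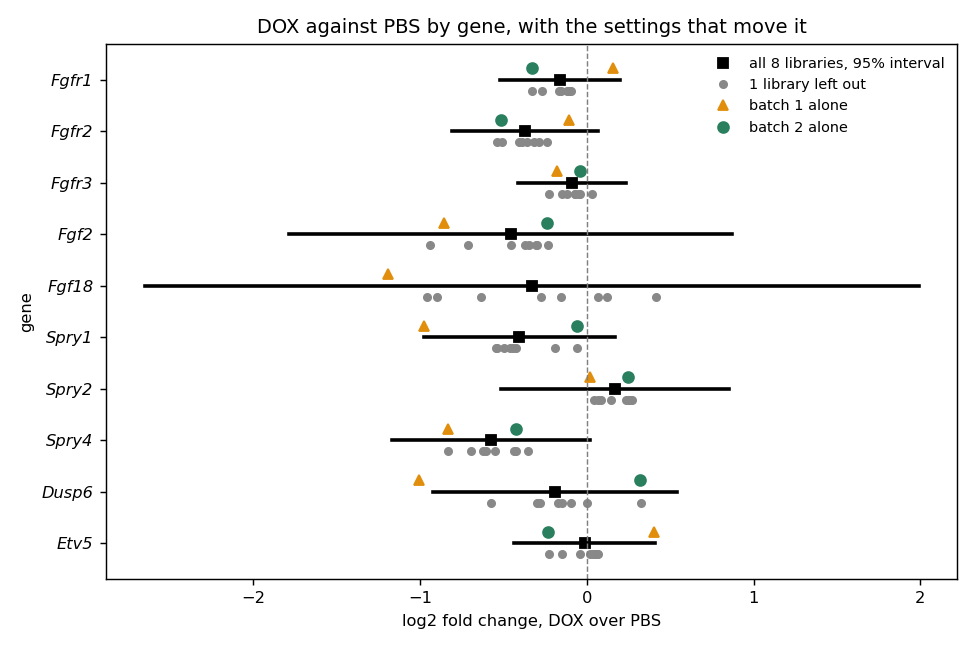
Log2 fold change of DOX over PBS for each gene. Squares and lines give the fit on all 8 libraries with its 95% interval, grey points the fits with 1 library left out, triangles batch 1 alone and circles batch 2 alone, where Fgf18 was not tested. All 10 intervals include 0, and the batch values of Dusp6, Etv5 and Fgfr1 lie on opposite sides of it.

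Exact two-sided permutation tests of the mean log2 CPM, over the 56 ways to choose 3 of 8 libraries, gave no p under 0.05 for any of the 10 genes. The smallest was 0.125, for Fgfr2, with a difference of -0.38. The smallest p this design allows is 0.0179.

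Promoter sequence is shown for 3 feedback genes that varied more over the libraries than most genes of like level. Of genes within 2 times the mean CPM of each, 95.4% had a lower SD of log2 CPM than Dusp6 (SD 0.62), 94.3% a lower one than Spry1 (0.49) and 93.4% a lower one than Etv5 (0.43). The sequences are the 250 bases before the transcript start in RefSeq, build GRCm38.p6, written along the strand of the gene. Capitals mark CGGAA, a core bound by ETS factors such as Etv5, or its reverse complement TTCCG. The windows lie at chr10:99262981-99263230 (plus strand) for Dusp6, chr3:37639697-37639946 (plus strand) for Spry1 and chr16:22439571-22439820 (minus strand) for the upstream start of Etv5.
Dusp6: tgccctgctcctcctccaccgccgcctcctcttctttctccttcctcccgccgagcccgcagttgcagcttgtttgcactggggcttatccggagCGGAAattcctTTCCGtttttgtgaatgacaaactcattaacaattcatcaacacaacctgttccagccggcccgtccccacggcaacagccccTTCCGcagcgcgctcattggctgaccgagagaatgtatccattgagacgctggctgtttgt
Spry1: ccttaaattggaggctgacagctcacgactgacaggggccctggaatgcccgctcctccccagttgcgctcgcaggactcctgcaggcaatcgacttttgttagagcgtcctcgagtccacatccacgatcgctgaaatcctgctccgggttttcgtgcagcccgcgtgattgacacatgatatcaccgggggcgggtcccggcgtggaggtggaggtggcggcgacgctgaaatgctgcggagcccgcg
Etv5: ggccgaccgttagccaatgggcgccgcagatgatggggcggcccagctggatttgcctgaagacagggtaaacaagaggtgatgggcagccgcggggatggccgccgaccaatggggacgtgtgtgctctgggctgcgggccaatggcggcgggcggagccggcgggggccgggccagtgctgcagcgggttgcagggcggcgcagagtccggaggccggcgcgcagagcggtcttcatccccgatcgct

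The Dusp6 window held 3 matches to the ETS core, whose first bases lie 155, 144 and 61 bases before the start. Those of Spry1 and Etv5 held none, nor did any other window searched for the 10 genes. Of 32851 such windows of all genes 25.2% held at least 1 match. Windows of 8 of the 10 genes were searched, 10 windows in all. None was matched for Fgfr1, and windows of the 10 genes on chromosome 18, which holds Spry4, were left out. The core was searched after the longer ETS motif CCGGAAG, which contains it, had given no match in the 10 windows (6.91% of all windows). None held the AP-1 motif TGANTCA (6.75%), the RUNX motif TGTGGT (14.0%) or the cyclic AMP response element TGACGTCA (1.55%), with both strands searched. Of the bases of the Dusp6, Spry1 and Etv5 windows shown, 56.4%, 62.4% and 71.2% were G or C, against a median of 52.4% over all windows. A match is a description of letters and not a binding site.

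The rest of the pathway was read from lists of genes. Of all genes tested, 47% had a log2 fold change below 0, with a median of 0.02. How far the counts of higher and lower genes in each list depend on single libraries was not tested. In the list of other receptors and partners, 4 genes were tested, 0 passed, 1 was higher and 3 were lower. Flrt2 and Flrt3, membrane proteins that associate with FGF receptors, stood at 55.9 ± 8.94 and 34.6 ± 8.29 CPM in DOX and at 59.6 ± 3.41 and 37.2 ± 17.3 CPM in PBS. Fgfrl1, a receptor-like protein without a kinase domain, had a log2 fold change of -0.27 ± 0.20 (SE).

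Of 19 tested genes of heparan sulfate, the co-receptor chain, 0 passed, 4 were higher and 15 lower, with a median log2 fold change of -0.16 against 0.02 over all genes. The glypican Gpc1, at 708 ± 147 CPM in DOX and 818 ± 201 CPM in PBS, and the syndecan Sdc3, at 482 ± 119 CPM in DOX and 543 ± 116 CPM in PBS, had the highest mean CPM of the list. Ndst1, which starts the sulfation of the chain, stood at 31.3 ± 6.71 CPM in DOX and 44.3 ± 3.72 CPM in PBS. All 5 DOX libraries lay below every PBS library for Ndst1, as for 1.19% of all genes tested, and its log2 fold change was -0.50 ± 0.18 (SE; edgeR, unadjusted p = 0.0176, adjusted p = 0.995). Ext1, which extends the chain, had a log2 fold change of -0.33 ± 0.16 (SE; edgeR, adjusted p = 0.995).

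Of 25 genes of the RAS and ERK cascade, 0 passed, 5 were higher and 20 lower (median log2 fold change -0.05). The adaptor gene Shc1 stood at 90.4 ± 12.1 CPM in DOX and 98.7 ± 8.07 CPM in PBS. Sos2, which loads RAS with GTP, had all 5 DOX libraries below every PBS library, as for 1.19% of all genes. Its log2 fold change was -0.40 ± 0.13 (SE; edgeR, unadjusted p = 0.0128, adjusted p = 0.995). Rps6ka1, which encodes the ERK-activated kinase RSK1, stood at 1.74 ± 0.253 CPM in DOX and 0.756 ± 0.197 CPM in PBS. All 5 of its DOX libraries lay above every PBS library, as for 1.24% of all genes, with a log2 fold change of 1.25 ± 0.38 (SE; edgeR, unadjusted p = 0.0075, adjusted p = 0.995).

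Of 13 tested further feedback genes and ERK targets, 0 passed, 8 were higher and 5 lower (median log2 fold change 0.08). Spred1, a relative of the Sprouty proteins, stood at 70.8 ± 14.3 CPM in DOX and 82.4 ± 2.48 CPM in PBS, and the ERK phosphatase gene Dusp7 at 40.7 ± 9.13 CPM in DOX and 45.0 ± 14.1 CPM in PBS. Etv4, a relative of Etv5, had 138 counts over the DOX libraries and 5 over the PBS libraries. It stood at 0.221 to 1.52 CPM in DOX and at 0.00 to 0.0818 CPM in PBS. Each DOX library lay above every PBS library, as for 1.24% of all genes. The log2 fold change was 4.04 ± 1.08 (SE; edgeR, unadjusted p = 0.00373, adjusted p = 0.995). With so few PBS counts, Etv4 passed the filter on low counts only through its DOX libraries, so nothing is read from that separation. The ephrin receptor gene Epha4 had a log2 fold change of -1.17 ± 0.54 (SE; edgeR, adjusted p = 0.995).

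Of 11 tested genes of other receptor tyrosine kinases, which feed the same cascade, 0 passed, 4 were higher and 7 lower (median log2 fold change -0.12). Pdgfra, a receptor of platelet-derived growth factor, stood at 260 ± 49.4 CPM in DOX and 301 ± 98.1 CPM in PBS, and the collagen receptor gene Ddr2 at 166 ± 19.4 CPM in DOX and 190 ± 26.4 CPM in PBS. Egfr, the receptor of epidermal growth factor, stood at 4.14 ± 1.11 CPM in DOX and 2.56 ± 1.38 CPM in PBS, with a log2 fold change of 0.74 ± 0.33 (SE; edgeR, unadjusted p = 0.0488, adjusted p = 0.995). Erbb2 stood at 12.6 ± 1.71 CPM in DOX and 15.2 ± 0.414 CPM in PBS.

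The genes whose pattern over the 8 libraries lay closest to each of the 6 genes with a mean of at least 10 CPM were found by the root mean square difference of centred log2 CPM, among 7371 other genes. Tmem101 (0.04 log2 units) and Opa1 (0.05) lay closest to Fgfr1, Heatr5b (0.09) and Exoc8 (0.09) to Fgfr2, and Aen (0.06) and Dlg5 (0.09) to Fgfr3. Tns2 (0.17) and Igsf8 (0.17) lay closest to Spry1, Fam20a (0.15) and Olfml2b (0.17) to Dusp6, and Fkbp9 (0.06) and Cpe (0.08) to Etv5. Among the 6 genes themselves the closest pair was Fgfr1 and Fgfr2, at 0.21 log2 units, while Dusp6 lay closest to Spry1, at 0.44 log2 units, and Spry1 closest to Fgfr2, at 0.37.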

How the data were processed

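RNA of sorted osteoblasts was amplified with the SMART-Seq v4 Plus kit, per the labels' protocols, a PCR method that does not mark strand. The authors deposited raw read counts per gene symbol, with a column for each library. The submitters' processing notes name build GRCm39, featureCounts 2.0.1, SAMtools 1.17, STAR 2.7.9a, Trim Galore 0.6.6, MultiQC 1.7 and FastQC 0.11.5. No source used here gives the annotation or the strand setting. The smallest gene total was 10 counts. No molecular identifiers are named, so intervals and floors cover counting error only.

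From the counts, two-sided quasi-likelihood tests were run with edgeR 4.0.16 in R 4.3.3 (TMM scaling and filterByExpr; terms for batch and group; Benjamini-Hochberg adjustment over 15373 genes; threshold 0.05). A second fit added the interaction of batch and group. Alternatives used limma 3.58.1 and DESeq2 1.42.0, other scalings and filters, single batches, a replicate block, and each library left out. Scripts were checked on simulated counts, and figures were drawn in Python 3.11.15 with matplotlib 3.10.9. CPM values use TMM-scaled totals, log2 CPM adds a prior count of 2, and a count of 0 has a floor of 3 counts. GENCODE M21 on GRCm38 gave exon lengths and overlaps only. Besides the 10 genes, each pathway list names its 2 genes of highest mean and 2 of smallest p, plus any past the threshold; 1 such gene is not reported here. Members and lists were chosen with earlier results of these data known.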

Additional observations from a re-analysis of the deposited data

Results flagged for a closer look

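Among the 10 genes, 3 had a DOX library far from the other 4 by Dixon's test (95% level). That level flags about 1 in 20 groups of normally distributed values by chance. The test ran on unlogged CPM and its share over all genes was not computed, so no excess is read from the 3. Fgf2 reached 1.40 CPM in DOX replicate 5, against 0.283 to 0.508 CPM in the other DOX libraries and 0.563 to 1.16 CPM in PBS. Fgf18 reached 1.05 CPM in DOX replicate 1, against 0.0246 to 0.248 CPM in the other DOX libraries and 0.00 to 1.46 CPM in PBS. Spry4 reached 10.2 CPM in DOX replicate 2, against 4.87 to 5.83 CPM in the other DOX libraries and 4.93 to 13.9 CPM in PBS. The PBS group, with 3 libraries, was not tested this way.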

How the results depend on the processing

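No DOX against PBS difference of the 10 genes passed at an adjusted p under 0.05 in any alternative run. Over all genes, DESeq2 called 15 and batch 1 alone 96, 2 of them in the pathway lists; every other alternative, each library left out included, called 0. Of 638 combinations of result and setting, 48 turned direction, none with an adjusted p under 0.05, and the cause was not tested.

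For DOX against PBS, log2 fold changes that turned were those of Etv5 with upper-quartile scaling (0.014), library totals only (0.073), batch 1 alone (0.41) and DOX replicate 1 counted as PBS (0.10); of Dusp6 with limma-voom (0.00684), batch 2 alone (0.32) and DOX replicate 1 as PBS (0.13); of Fgfr1 in batch 1 alone (0.16); and of Fgfr3 (0.00116) and Spry2 (-0.024) with DOX replicate 1 as PBS. With libraries left out, Fgfr3 ran from -0.22 to 0.033, Fgf18 from -0.96 to 0.41, Dusp6 from -0.57 to 0.32 and Etv5 from -0.23 to 0.070. The difference in mean log2 CPM turned with library totals only for Fgfr3 (0.054), Dusp6 (0.048) and Etv5 (0.046), with a prior count of 0.5 for Fgf18 (0.34), and without PBS replicate 1 for Fgfr3 (0.094), Fgf18 (1.26) and Dusp6 (0.46); these were added after seeing the data. Library totals only moved the median of all genes to 0.105 for DOX against PBS, -0.348 between batches and 0.51 for the interaction.

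Between batches, 14 genes were called, against 8 with library totals only, 506 with DESeq2, 5 with DOX replicate 1 as PBS, and 0 to 938 with libraries left out. Fgfr1 turned with library totals only (-0.085), and ran from -0.21 to 0.43 with libraries left out; Fgfr2 ran from -0.62 to 0.23. The interaction called 0 genes, against 291 with DESeq2 and 0 to 58 with libraries left out; it has no value without PBS replicate 1, the only PBS library of batch 1. Its values turned for Fgfr1 (0.056) and Fgfr2 (0.17) with library totals only, and for Fgfr3 (-0.12), Spry1 (-0.16) and Spry4 (-0.47) with DOX replicate 1 as PBS. With libraries left out it ran from -0.79 to 0.073 for Fgfr2, -0.11 to 0.39 for Fgfr3, -0.15 to 1.07 for Fgf2, -0.10 to 0.58 for Spry2 and -0.015 to 0.96 for Spry4.

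Deviations from the group means correlated at 0.248, -0.054 and 0.245 for same-numbered libraries, and at -0.328 to 0.178 for the others. DOX replicate 2 correlated best with PBS replicate 1 (0.121). Batch was not removed from these deviations, so they cannot decide whether replicate numbers pair the libraries. With the replicate block in place of batch, 0 genes were called, and Fgfr3 (0.084) and Fgf18 (0.29) turned. With the replicate block beside batch, added after seeing the data, the batch difference called 0 genes, and Fgfr1 (-0.043), Fgf2 (-0.36) and Spry2 (0.056) turned. Batch 1 holds 1 PBS library, and Fgf2 and Fgf18 have few counts; both limit precision.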
